A study of Mus musculus with 11 samples.

Results

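T cell receptor variable (V) and constant (C) segments were examined in sorted epidermal cells of mice with and without Langerhans cells (LCs). All mouse genes with symbols starting Trav, Trdv, Trbv, Tcrg-V or Tcrg-C were taken, together with Trac, Trdc, Trbc1 and Trbc2, which gave 183 of the 52550 genes in the table. They comprise 128 α V, 35 β V, 6 γ V and 6 δ V segments and 8 constant segments, and 34 of them are annotated as pseudogenes.

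RNA-seq had been done on keratinocytes (KCs) and dendritic epidermal T cells (DETCs), sorted from the epidermis of 8-week-old female huLangerin-DTA mice (written LC-/-) and littermate wild type (WT) mice. In huLangerin-DTA mice the human langerin promoter drives diphtheria toxin subunit A, and LCs are missing from birth on. No other allele or treatment is named in the labels. There were 3 WT and 3 LC-/- KC libraries and 3 WT and 2 LC-/- DETC libraries, named here by population and by the number in the sample title (W1, W2 and W3 for WT, L1, L2 and L3 for LC-/-, in the order of these numbers; L1 is a KC library only). Whether libraries of both populations that share a number came from 1 mouse is not stated. Both sorts took live cells without MHC-II, langerin and c-kit, with CD45 for DETCs and without it for KCs. No receptor antibody entered the DETC gate, so it could hold other CD45+ lymphocytes of the epidermis. Values are read counts divided by a size factor of each library (normalized counts). Libraries held 13491075 to 19750440 reads on genes.

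A T cell receptor is a pair of chains, α with β or γ with δ. Each chain gene is assembled in the developing T cell: 1 V segment is joined to a J segment (with a D segment between them in β and δ), and the transcript is then spliced to a C segment. DETCs are the γ/δ T cells of mouse epidermis. They arise in the fetal thymus and carry a nearly uniform receptor, whose γ chain uses Tcrg-V5 with Tcrg-C1 and whose δ chain uses Trdv4 with Trdc. The δ genes lie within the α locus on chromosome 14, and segments with a name such as Trav13-4-dv7 can be joined to either chain. α/β T cells, in contrast, draw on many V segments.

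The second exons of 6 V segments are shown because the DETC receptor and the called or highest α segments are read from them. They are from GENCODE mouse release 21 on GRCm38, 5′ to 3′ on the plus strand. The 3 Trav16 exons have 301 bases, of which the last 300 are printed. Capitals mark the conserved cysteine codon near the 3′ end and all bases after it, the germline part of the third hypervariable loop.
Trdv4 (δ V, chr14:54075217-54075515): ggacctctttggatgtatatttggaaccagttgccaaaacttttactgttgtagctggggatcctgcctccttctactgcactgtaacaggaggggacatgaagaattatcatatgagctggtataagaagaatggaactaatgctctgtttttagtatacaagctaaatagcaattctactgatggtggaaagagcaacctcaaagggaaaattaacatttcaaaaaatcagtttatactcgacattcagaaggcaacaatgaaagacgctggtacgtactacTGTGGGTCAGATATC
Tcrg-V5 (γ V, chr13:19192428-19192725): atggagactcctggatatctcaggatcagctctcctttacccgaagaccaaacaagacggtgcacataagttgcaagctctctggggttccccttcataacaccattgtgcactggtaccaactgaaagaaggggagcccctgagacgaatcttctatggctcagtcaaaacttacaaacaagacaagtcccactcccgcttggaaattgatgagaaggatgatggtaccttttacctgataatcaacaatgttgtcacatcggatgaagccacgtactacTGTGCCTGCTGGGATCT
Trav16 (α V, chr14:53743406-53743705): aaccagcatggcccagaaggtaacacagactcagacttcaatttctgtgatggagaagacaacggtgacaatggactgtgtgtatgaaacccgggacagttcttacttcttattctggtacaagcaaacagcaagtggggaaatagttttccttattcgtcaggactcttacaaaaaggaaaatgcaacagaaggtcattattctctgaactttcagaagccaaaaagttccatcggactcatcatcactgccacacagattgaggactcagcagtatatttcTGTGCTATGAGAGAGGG
Trav16n (α V, chr14:53351322-53351621): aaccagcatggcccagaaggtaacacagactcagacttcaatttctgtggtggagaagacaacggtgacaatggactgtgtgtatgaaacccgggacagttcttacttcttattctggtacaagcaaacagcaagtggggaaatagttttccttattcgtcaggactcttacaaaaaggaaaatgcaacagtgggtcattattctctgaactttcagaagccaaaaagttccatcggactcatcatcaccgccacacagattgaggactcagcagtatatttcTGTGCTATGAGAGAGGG
Trav16d-dv11 (α V, chr14:53047522-53047821): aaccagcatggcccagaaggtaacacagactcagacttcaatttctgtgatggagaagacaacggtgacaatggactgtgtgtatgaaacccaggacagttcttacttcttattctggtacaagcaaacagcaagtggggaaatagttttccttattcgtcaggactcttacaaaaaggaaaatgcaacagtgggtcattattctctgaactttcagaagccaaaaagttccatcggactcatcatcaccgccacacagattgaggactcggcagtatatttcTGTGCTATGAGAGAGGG
Trav13-4-dv7 (α or δ V, chr14:53757643-53757921): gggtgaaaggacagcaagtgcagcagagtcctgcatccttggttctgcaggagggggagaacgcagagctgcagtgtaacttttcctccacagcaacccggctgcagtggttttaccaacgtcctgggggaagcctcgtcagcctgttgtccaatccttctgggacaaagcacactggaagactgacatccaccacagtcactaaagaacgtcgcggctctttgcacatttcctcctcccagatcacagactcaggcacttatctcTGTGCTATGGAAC
The Trav16 exon differs from that of Trav16n at 4 of 301 positions and from that of Trav16d-dv11 at 5. Of all 75-base windows of the annotated Trav16 transcript, 32.1% also occur in these copies, whereas no window of Trdv4, Tcrg-V5, Trdc or Trac occurs in another segment read on its own strand. Such windows are common among α segments, of which 110 of 128 share at least 1 with another, and absent among the 35 β segments. Reads of α segments with copies could therefore be split among them or dropped in counting, and single α segments are uncertain to that extent.

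The sorted populations carried the receptor genes their names call for. Each DETC library held 52534 to 85098 reads on the 183 segments, or 0.316% to 0.572% of its reads, and each KC library 97 to 165. In KCs no α V segment had a read in any of the 6 libraries. β V segments had at most 5 reads in a KC library, γ V segments at most 1, and Trdv4 had 2 reads in W1, 6 in L3 and 0 in the other 4. Of the segment reads in KCs 66.0% to 78.8% were of Trbc2 alone, 64 to 130 reads per library, a constant segment of the β chain found there almost without V reads. Cd3e, an invariant subunit of the receptor complex, had 24602 to 27726 normalized counts in DETC libraries and a mean of 2.73 in WT KCs. Keratinocyte RNA was present in the DETC libraries: Krt5, a keratin of basal KCs, had 17238 to 22528 normalized counts there and a mean of 119690 in WT KCs. Over 12 keratinocyte genes the median level in DETC libraries was 15.3% (W1), 14.8% (W2) and 18.2% (W3) of that in KCs in WT and 23.9% (L2) and 16.3% (L3) in LC-/- mice. KC reads of V segments were so few that subtracting the KC mean changed the genotype difference of the Trdv4 share from -4.870 to -4.874 points.

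In DETCs, 132 of the 183 segments had at least 1 read and 51 had none in any library. The test across genes took the 14419 genes with more than 1 read in 1e+06 of the library (CPM) in at least 2 of the 11 libraries. This kept 47 segments: all 8 constant segments, 4 of 6 δ V, 5 of 6 γ V, 18 of 35 β V and 12 of 128 α V segments. Trav12-2 passed through LC-/- DETC libraries alone and Trav21-dv12 through WT ones alone. Of the 47, 46 were higher in WT DETCs than in WT KCs by limma (40.5% of all tested genes were), which the filter favours, since only 3 of the 47 were above 1 CPM in any KC library.

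Within DETCs the Trdv4 δ segment fell and the Trav16 α segment rose in LC-/- mice, and no other segment passed the test. That is 1 of 47 segments higher and 1 of 47 lower (2.13% each), where 3.13% of all tested genes were higher and 0.430% were lower (limma, Benjamini-Hochberg adjusted p under 0.05). The median log2 fold change of the 47 was -0.07, with 23 above and 24 below 0, beside 0.02 over all tested genes. Segments whose genotypes did not overlap numbered 7 higher (14.9%) and 8 lower (17%), beside 21.3% and 16.5% of all tested genes. DESeq2, run on recovered reads, gave 23 of the 47 segments an adjusted p. Of these 23 it called 2 higher (8.36% of all genes with an adjusted p) and 4 lower (2.06%). It called Trav16 and Trav13-4-dv7 higher and Trdv4, Trdc, Tcrg-V5 and Tcrg-C1 lower. On the same reads edgeR called 1 segment higher (Trav16) and 1 lower (Trdv4). Of all 14419 tested genes edgeR called 410 higher and 73 lower. The study had itself singled out Trdv4, Tcrg-V5, Trav16 and Trav13-4-dv7 from these libraries, so the calls given here are not independent evidence for them. In bulk RNA, fewer cells with a receptor and less of its RNA per cell cannot be told apart. In its principal component plot the study describes each dot as a separate animal. It does not address KC and DETC libraries that share a number.

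**Figure D1:**
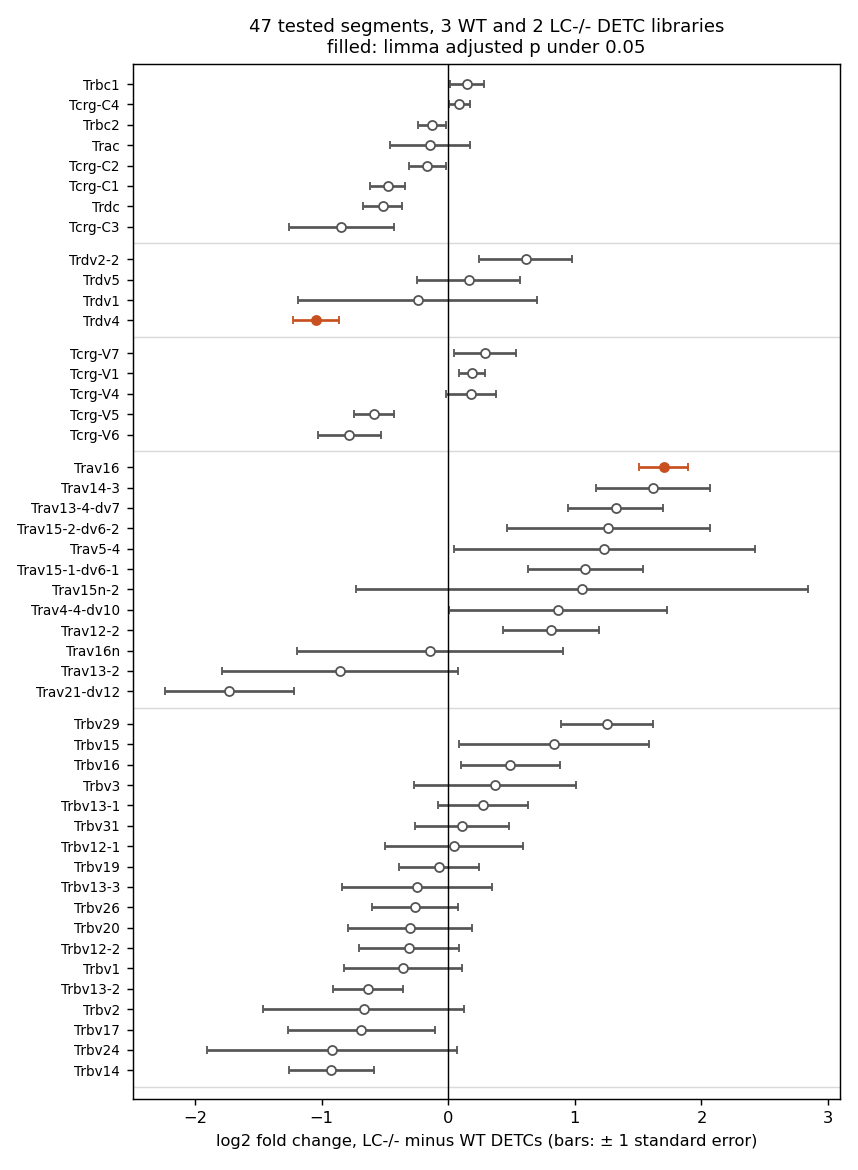
Log2 fold change of the 47 tested segments between LC-/- and WT DETCs (horizontal axis, log2 of the normalized count plus 1, with ± 1 standard error), in blocks from top to bottom of C, δ V, γ V, α V and β V segments. Only Trav16, at 1.70, and Trdv4, at -1.04, are filled, the mark of an adjusted p under 0.05, and the β block lies on both sides of 0 with wide bars.

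The canonical chains of DETCs were examined first. Trdv4, the δ V segment of the DETC receptor, had 11432, 7750 and 10270 normalized counts in W1, W2 and W3 and 5387 and 4115 in L2 and L3. Both LC-/- libraries lay below all 3 WT libraries, and the log2 fold change was -1.04 ± 0.18 (SE, limma adjusted p = 0.0279). The call rested on few libraries: omission of each library in turn gave adjusted p values of 0.0442 to 0.0918, and only the fit without W2 stayed under 0.05. Without W1 it was 0.0612, without W3 0.0918, without L2 0.0685 and without L3 0.0645, with log2 fold changes of -0.85 to -1.24. Trdv4 was also not called in 1 fit over all 11 libraries (adjusted p = 0.464), without the filter on low values (0.239) and with eBayes without trend (0.185).

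Trdc, the constant segment of the δ chain, followed the same order with a smaller difference. It had 39123, 30304 and 38560 normalized counts in WT and 26887 and 23250 in LC-/- DETCs, without overlap (log2 fold change -0.52 ± 0.16, limma adjusted p = 0.120, DESeq2 adjusted p = 0.00288). Tcrg-V5, the γ V segment of the DETC receptor, had 5387, 3650 and 4461 normalized counts in WT and 3191 and 2738 in LC-/- DETCs. Its groups did not overlap either, and the log2 fold change was -0.59 ± 0.16 (limma adjusted p = 0.0910, DESeq2 adjusted p = 0.00593). Tcrg-C1, to which Tcrg-V5 is spliced, had 14601, 10740 and 12064 normalized counts in WT and 9220 and 8558 in LC-/- DETCs. The log2 fold change was -0.48 ± 0.14 (limma adjusted p = 0.109, DESeq2 adjusted p = 0.00948). In normalized counts all 4 genes of the canonical receptor were thus lower in both LC-/- libraries than in every WT library, and 1 of them passed limma's test.

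Levels can be set against each other only per length. Per kilobase of annotated exon, WT DETCs had a mean of 22111 normalized counts of Trdv4, 13494 of Tcrg-C1, 13195 of Tcrg-V5 and 9313 of Trdc. Tcrg-C1 and Tcrg-V5 are within their spread of each other. In LC-/- DETCs the order was kept, with 10700, 9620, 8694 and 6486 normalized counts per kilobase. The next constant segments in WT DETCs were Trbc1 with 3821, Trbc2 with 3307 and Trac with 2987 normalized counts per kilobase, and the highest V segment outside the canonical pair was Tcrg-V1 with 1116.

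**Figure D2:**
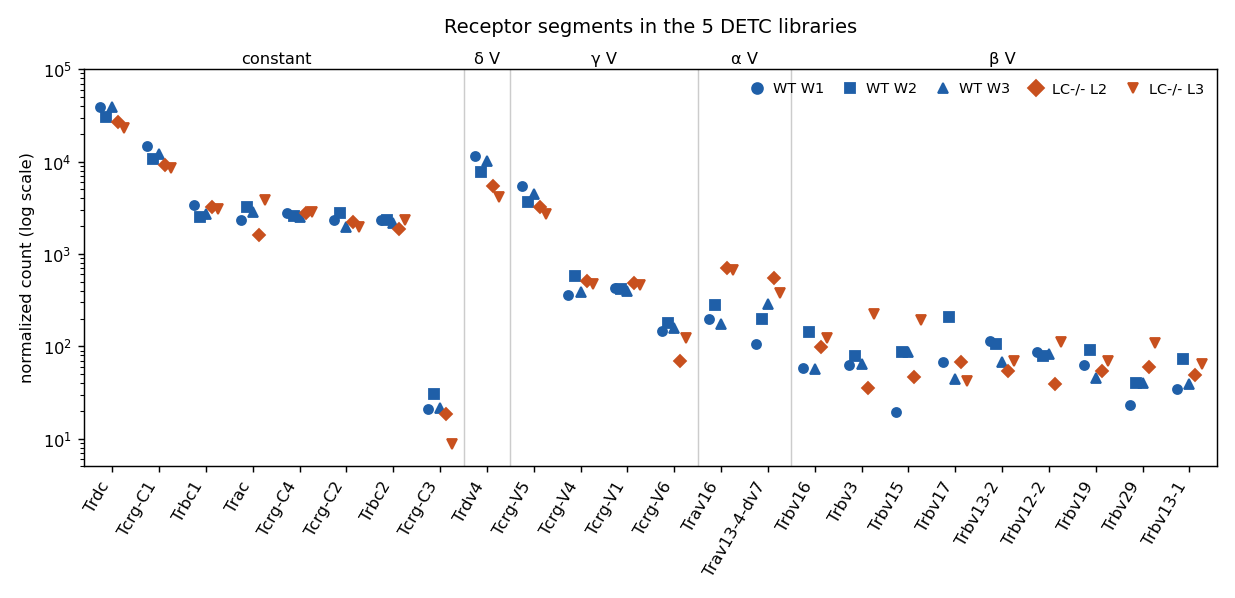
Normalized counts on a log axis of 24 receptor segments in the 5 DETC libraries, 1 symbol per library, WT in blue and LC-/- in orange. For Trdc, Tcrg-C1, Trdv4 and Tcrg-V5 both LC-/- libraries lie under all 3 WT libraries, for Trav16 and Trav13-4-dv7 above them, and for Trac L2 is lowest at 1622 and L3 highest at 3855.

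The remaining γ segments were measured beside Tcrg-V5, and 0 of them passed the test. Tcrg-V1, a γ V segment of circulating and lymphoid γ/δ T cells, had 431, 421 and 401 normalized counts in WT and 490 and 461 in LC-/- DETCs (log2 fold change 0.19 ± 0.10, limma adjusted p = 0.371). Tcrg-C4, the constant segment used with it, had 2804, 2603 and 2520 normalized counts in WT and 2792 and 2821 in LC-/- DETCs (0.09 ± 0.09, limma adjusted p = 0.626). Tcrg-V4, used by a part of the γ/δ T cells of lymph nodes and dermis, had 357, 578 and 389 normalized counts in WT and 505 and 475 in LC-/- DETCs, which overlap. Tcrg-V6, the γ V segment of fetal-derived IL-17-producing γ/δ T cells, whose δ chain also uses Trdv4, had 147, 179 and 157 normalized counts in WT and 69.9 and 124 in LC-/- DETCs. Its genotypes did not overlap (log2 fold change -0.78 ± 0.25, limma adjusted p = 0.143), and it was called only without L3 (-1.19, adjusted p = 0.0305). Tcrg-V6 lies 1.35 kb before Tcrg-V5 in the genome. Tcrg-C2 had 2304, 2807 and 1973 normalized counts in WT and 2219 and 1958 in LC-/- DETCs, which overlap, and Tcrg-C3 had at most 30.5. Tcrg-V7 had 158 to 253 normalized counts in WT and 195 and 299 in LC-/- DETCs, which overlap.

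As a share of its chain, Tcrg-V5 made up 81.8%, 72.5% and 80.0% of the γ V reads in W1, W2 and W3 and 71.5% and 66.8% in L2 and L3. The shares did not overlap, and the means differed by -8.97 points, LC-/- minus WT (78.1% ± 4.9 in 3 WT and 69.1% ± 3.3 in 2 LC-/- libraries, SD). A two-sided exact permutation test gave p = 0.2, the smallest that 3 against 2 libraries allow, so no share could pass a threshold of 0.05. Tcrg-V1 held 6.54%, 8.36% and 7.19% of γ V reads in WT and 11.0% and 11.2% in LC-/- libraries, again without overlap (exact permutation p = 0.2). Tcrg-V4 held 5.41%, 11.5% and 6.98% in WT and 11.3% and 11.6% in LC-/- libraries, and W2 lay within the LC-/- range. Of the δ V reads Trdv4 held 97.5%, 93.3% and 97.6% in WT and 95.1% and 87.5% in LC-/- DETCs, which overlap (exact permutation p = 0.4). Most of the rest was Trdv5, whose exon shares 207 bases with Trdc on the opposite strand, so its reads and those of Trdc cannot be told apart without the strand setting of the counting, which is not given in the sources used here.

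V reads were set against C reads of the same chain. Trdv4 had 29.2, 25.6 and 26.6 reads per 100 reads of Trdc in WT and 20.03 and 17.7 in LC-/- DETCs, lower in both LC-/- libraries (exact permutation p = 0.2). Tcrg-V5 had 36.9, 34.0 and 37.0 reads per 100 reads of Tcrg-C1 in WT and 34.6 and 32.0 in LC-/- DETCs, which overlap (exact permutation p = 0.4). Against Tcrg-V5, Trdv4 had 212, 212 and 230 reads per 100 in WT and 169 and 150 in LC-/- DETCs, again without overlap (exact permutation p = 0.2). In these libraries the ratio of the canonical γ V segment to its constant segment overlapped between the genotypes, and that of the canonical δ V segment did not.

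**Figure D3:**
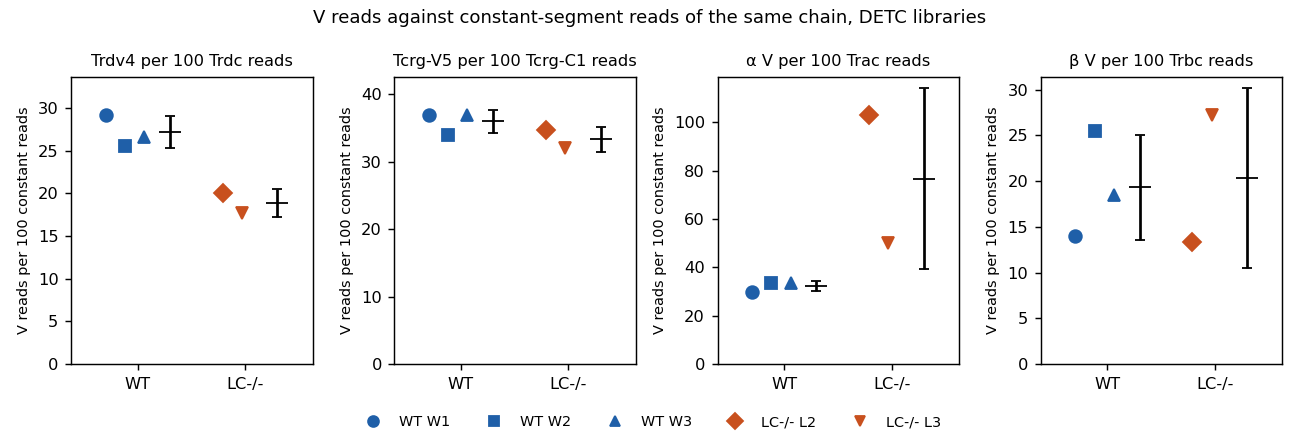
V-segment reads per 100 reads of the constant segment of the same chain in each DETC library (vertical axes from 0), with mean and SD per genotype in black. The LC-/- libraries lie below WT for Trdv4 against Trdc (20.03 and 17.7 against 25.6 to 29.2), overlap for Tcrg-V5 and β V, and lie above for α V, where L2 stands at 103.

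Trav16 had the highest log2 fold change of the 47 segments. It had 195, 279 and 175 normalized counts in W1, W2 and W3, 711 and 676 in L2 and L3, and 0 reads in every KC library. Both LC-/- libraries were over every WT library, and the log2 fold change was 1.70 ± 0.19 (limma adjusted p = 0.0105), called in each of the 5 fits that omitted a library (adjusted p 0.0152 to 0.0486). It was not called without the filter on low values (adjusted p = 0.129) or with eBayes without trend (0.179). Summed with its copies Trav16n and Trav16d-dv11, it had 207, 344 and 186 normalized counts in WT and 731 and 724 in LC-/- DETCs, of which Trav16 itself was 81.1% to 97.2%. Trav16 made up 28.2%, 25.8% and 18.7% of the α V reads in WT and 42.5% and 35.0% in LC-/- DETCs (exact permutation p = 0.2).

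Trav13-4-dv7, which can be joined to α or δ, lies 13.7 kb after Trav16 and was the other α V segment above 5% of α V reads. It had 105, 196 and 288 normalized counts in WT and 544 and 379 in LC-/- DETCs, without overlap (log2 fold change 1.32 ± 0.38, limma adjusted p = 0.105, DESeq2 adjusted p = 0.00857). It held 15.1%, 18.2% and 30.7% of α V reads in WT and 32.5% and 19.6% in LC-/- DETCs, which overlap. The next segment in the locus, Trav14-3, named after its values were seen, lies 5.25 kb further on. It had 10.9, 21.5 and 10.7 normalized counts in WT and 31.1 and 61.9 in LC-/- DETCs (log2 fold change 1.62 ± 0.45, limma adjusted p = 0.0975). Trav8-2, 4.27 kb before Trav16, was under the filter with 2.92 to 17.7 normalized counts. At the other end Trav21-dv12, also named after its values were seen, had 26.2, 46.2 and 15.6 normalized counts in WT and 9.71 and 5.53 in LC-/- DETCs (log2 fold change -1.73 ± 0.51, limma adjusted p = 0.114). Of the 12 tested α V segments 9 had positive and 3 negative log2 fold changes, where 7554 of all 14419 tested genes had positive ones. The filter favoured the sign of Trav21-dv12, which passed through WT libraries alone, and of Trav12-2, which passed through LC-/- libraries alone. Trav16 and Trav13-4-dv7 together held 43.4%, 44.0% and 49.3% of α V reads in WT and 74.9% and 54.6% in LC-/- DETCs. All other α V segments summed to 392, 606 and 476 normalized counts in WT and to 419 and 878 in LC-/- DETCs, which overlap.

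The constant segment of the α chain overlapped between the genotypes. Trac had 2329, 3232 and 2817 normalized counts in WT and 1622 and 3855 in LC-/- DETCs, so that L2 was the lowest and L3 the highest of the 5. Trav16 had 8.39, 8.63 and 6.21 reads per 100 reads of Trac in WT and 43.8 and 17.5 in LC-/- DETCs. All α V segments had 29.7, 33.4 and 33.3 reads per 100 reads of Trac in WT and 103 and 50.1 in LC-/- DETCs, so that in L2 α V reads were as many as Trac reads. The 2 LC-/- libraries differed as much in genes of α/β T cells as in Trac. Cd8a, a subunit of the CD8 co-receptor, had 378 normalized counts in L2 and 2825 in L3 (7.48 times), Cd8b1 98.1 and 943, and Cd4, the co-receptor of helper T cells, 232 and 630. Trav16 in L3 was 0.951 times its level in L2. The WT libraries, with 786, 2092 and 1716 normalized counts of Cd8a, lay between the LC-/- libraries.

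**Figure D4:**
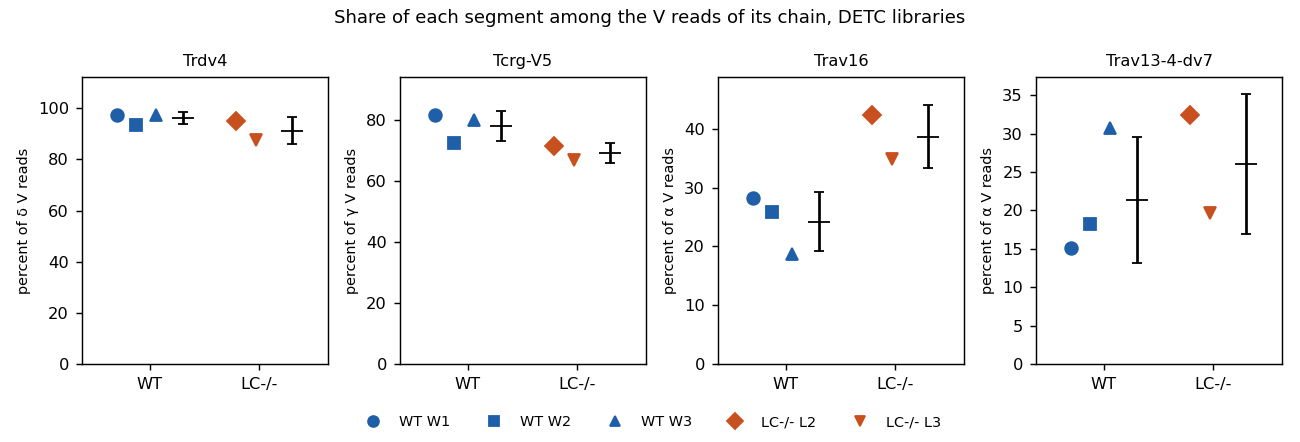
Percent of the V reads of its chain held by Trdv4, Tcrg-V5, Trav16 and Trav13-4-dv7 in each DETC library (vertical axes from 0), with mean and SD per genotype in black. Tcrg-V5 is lower (71.5% and 66.8%) and Trav16 higher (42.5% and 35.0%) in both LC-/- libraries than in any WT library, and the other 2 overlap.

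β V segments were spread widely and without a common direction. Of these, 9 held at least 5% of the β V reads on average. The effective number of β V segments, 1 over the sum of squared shares, came to 13.5, 12.4 and 15.0 in WT and 13.1 and 12.6 in LC-/- DETCs. For α V it came to 8.45, 8.95 and 6.56 in WT and 3.44 and 5.78 in LC-/- DETCs, for γ V 1.48, 1.82 and 1.53 in WT and 1.86 and 2.09 in LC-/- DETCs, and for δ V 1.05 to 1.14 in WT and 1.105 and 1.29 in LC-/- DETCs. Of the 18 tested β V segments 7 had positive and 11 negative log2 fold changes, from -0.92 to 1.25, and 0 were called by limma, DESeq2 or edgeR (1 in each direction at an unadjusted p under 0.05). Trbv29 had the highest of these, with 22.9, 40.4 and 39.9 normalized counts in WT and 60.2 and 108 in LC-/- DETCs (1.25 ± 0.36, limma adjusted p = 0.109). Trbv3 and Trbv15 were highest in L3, with 223 and 195 normalized counts there against 35.0 and 46.6 in L2 (6.39 and 4.18 times). The highest WT library had 1.24 times the lowest for Trbv3, but 4.41 times for Trbv15, so WT libraries varied as widely for Trbv15. Trbv17 was high in W2 alone, with 209 normalized counts against 42 to 67.7 elsewhere. Trbv16 (57.4 to 143), Trbv13-2 (53.4 to 115), Trbv12-2 (38.8 to 113), Trbv19 (45.7 to 91.6) and Trbv13-1 (34.9 to 73.4 normalized counts) overlapped between the genotypes. Trbc1 (2495 to 3408 in WT, 3215 and 3079 in LC-/-) and Trbc2 (2176 to 2358 in WT, 1870 and 2338 in LC-/-), the β constant segments, overlapped as well. Of their 75-base windows 35.1% (Trbc1) and 37.7% (Trbc2) occur in the other, so their split is uncertain.

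Some V segments were carried by 1 library. Of 46 V segments with at least 50 reads over the 5 DETC libraries, 5 had at least 60% of them in 1 library: Trav14n-3 in W3 (133 of 152 reads), Trav2 in W2 (70 of 77), Trbv30 in L3 (88 of 95), Trav5-4 in L3 (141 of 200) and Trav15n-2 in L3 (62 of 83). They were 4 of 17 α and 1 of 19 β segments, and 0 of 10 γ and δ segments. Of the transcript windows of Trav15n-2, 100% also occur in Trav15-2-dv6-2 or Trav15d-2-dv6d-2, so its reads cannot be assigned to it alone. The shared part was 38.3% for Trav14n-3, 17.1% for Trav5-4 and 0% for Trav2 and Trbv30. Whether such segments are more frequent than among all genes with as many reads was not tested.

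Summed by chain, the V reads of LC-/- DETCs held less δ and more α. δ V segments made up 59.2%, 53.1% and 58.7% of all V reads in W1, W2 and W3 and 45.4% and 38.5% in L2 and L3. α V segments made up 3.49%, 6.91% and 5.23% in WT and 13.4% and 15.8% in LC-/- DETCs, and neither overlapped (exact permutation p = 0.2 each). γ V segments made up 33.3%, 32.1% and 31.1% in WT and 35.8% and 33.6% in LC-/- DETCs, also without overlap (exact permutation p = 0.2). Their summed level was nonetheless lower, with 6590, 5031 and 5576 normalized counts in WT and 4465 and 4100 in LC-/- DETCs, without overlap. β V segments, 4.07% to 7.90% of V reads in WT and 5.44% and 12.1% in LC-/- DETCs, overlapped. α/β V reads came to 8.18%, 17.4% and 11.4% of γ/δ V reads in WT and to 23.2% and 38.7% in LC-/- DETCs, a log2 ratio higher by 1.35 (exact permutation p = 0.2). This difference was 0.75 with segments of families with near-identical copies left out, and the genotypes then overlapped (exact permutation p = 0.4). That setting removed 111 of the 128 α V segments, among them Trav16 and Trav13-4-dv7, so it also left out the α segments with most reads. By constant segments, α/β reads were 13.7%, 17.4% and 13.9% of γ/δ reads in WT and 16.3% and 25.3% in LC-/- DETCs, which overlap (log2 ratio higher by 0.45, exact permutation p = 0.4). Without L3 this difference was 0.13. With the dual segments counted as δ, Trdv4 was 11.3 points lower and Trav16 23.6 points higher in LC-/- DETCs as a share of its chain (4.87 and 14.5 points as counted here).

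**Figure D5:**
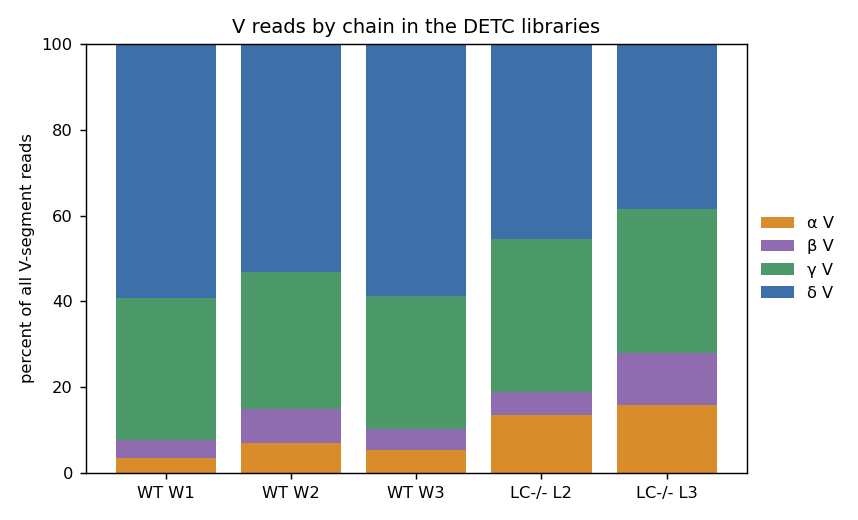
Percent of all V-segment reads (vertical axis) by chain in the 5 DETC libraries, stacked from α at the bottom to δ at the top. The δ part is 53.1% to 59.2% in WT and 45.4% and 38.5% in LC-/- libraries, and the α part 3.49% to 6.91% against 13.4% and 15.8%.

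Other genes of the receptor and of its loci were read off the same fit. J and D segments, which are joined to the V segments, numbered 80, of which 14 were tested and 0 called by limma, DESeq2 or edgeR, with 0 at an unadjusted p under 0.05 (median log2 fold change -0.03). Of 24 genes of the CD3 complex and proximal receptor signalling, 24 were tested and 0 called in DETCs by limma and by edgeR (2 higher with DESeq2, and 2 higher at an unadjusted p under 0.05), with a median of -0.05. The CD3 genes Cd3d, Cd3e, Cd3g and Cd247 summed to 68300, 72563 and 66898 normalized counts in WT and 61765 and 65746 in LC-/- DETCs. Against these CD3 reads Trdv4 had 16.7, 10.7 and 15.4 reads per 100 in WT and 8.72 and 6.26 in LC-/- DETCs, without overlap (exact permutation p = 0.2). Tcrg-V5, Trdc and Tcrg-C1, lower in normalized counts in both LC-/- libraries, overlapped per 100 CD3 reads (exact permutation p = 0.4 each). W2 lay below L2 for Tcrg-V5 (5.03 against 5.17), Trdc (41.8 against 43.5) and Tcrg-C1 (14.8 against 14.9). Of 11 genes of V(D)J recombination, 7 were tested and 1 rose by limma, where 3.13% of all tested genes rose. This was Dclre1c, the Artemis nuclease that opens hairpin ends. It had 325, 279 and 306 normalized counts in WT and 639 and 478 in LC-/- DETCs (log2 fold change 0.86 ± 0.15, limma adjusted p = 0.0279). Rag2, Dntt and Ptcra had 0 reads in DETCs and Rag1 at most 1.65 normalized counts.

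Markers of the cells the DETC gate could hold were measured beside the segments. The list of dermal γ/δ T17 cells has 15 genes, of which 3 fell and 0 rose by limma (7 fell by DESeq2, and 9 were lower before adjustment with p under 0.05), where 0.430% of all tested genes fell by limma, with a median log2 fold change of -0.78 (0.02 over all tested genes). Its summed level was 10531 to 12978 normalized counts in WT and 10028 and 9188 in LC-/- DETCs. Among its genes the chemokine receptor Ccr6 fell (-1.30, limma adjusted p = 0.0327), as did 5830411N06Rik (-0.99, adjusted p = 0.0333). The list also holds Tcrg-V4 and Tcrg-V6. Of 12 genes of α/β T cells 1 rose and 1 fell by limma, where 3.13% of all tested genes rose and 0.430% fell. The homing receptor Ccr7 rose (0.90, limma adjusted p = 0.0333) and the chemokine receptor Ccr4 fell (-1.06, limma adjusted p = 0.0161). Cd4, Cd8a, Cd8b1 and Foxp3 overlapped between the genotypes. The summed level of this list was 8269 to 12052 normalized counts in WT and 7113 and 13207 in LC-/- DETCs. Of 10 DETC markers 0 were called by limma and by edgeR (2 lower with DESeq2, and, before adjustment, p under 0.05 for 1 higher and 2 lower), with a median of -0.28 and a summed level of 87383 to 98810 normalized counts in WT and 78431 and 81514 in LC-/- DETCs. This list holds Trdc, and without it the sums, 55047 to 60250 normalized counts in WT and 51544 and 58264 in LC-/- DETCs, overlapped. Of 7 genes of natural killer and innate lymphoid cells 1 fell by limma, Klrb1c (-1.18, limma adjusted p = 0.0488), where 0.430% of all tested genes fell. The list summed to 37521 to 47482 normalized counts in WT and 58660 and 54467 in LC-/- DETCs. Most of this sum was Il2rb, a receptor subunit for IL-2 and IL-15 that T cells also carry (33889 to 43101 in WT, 54403 and 50709 in LC-/- DETCs, limma adjusted p = 0.150). Without Il2rb the sums, 3633 to 4381 normalized counts in WT and 4257 and 3758 in LC-/- DETCs, overlapped. Most of what then remained was Gata3 (2891 to 3687 in WT, 3786 and 3226 in LC-/- DETCs). Gata3 is not particular to these cells here, with a mean of 6102 normalized counts in WT KCs. Of 12 keratinocyte genes 0 were called by limma and by edgeR (3 higher with DESeq2, 3 higher at an unadjusted p under 0.05, median 0.28). Of 7 LC genes Epcam rose and H2-Aa, H2-Ab1, H2-Eb1 and Cd74 fell by limma (3.13% of all tested genes rose and 0.430% fell). Epcam is not particular to LCs here, with a mean of 6119 normalized counts in WT KCs and 1299 in WT DETCs. It rose in LC-/- KCs too (log2 fold change 0.68, limma adjusted p = 0.0186). Of 6 mast cell genes 1 could be tested. Cd4, Cd8a and Cd8b1 were at 0 or near 0 in KCs, with a mean of at most 0.342 normalized counts in WT. The part of these cell types in the differences of Trdv4, Tcrg-V5 and Trav16 was not tested.

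In KCs no segment was called between the genotypes (0 of 47 higher and 0 lower by limma; 5.37% of all tested genes were higher and 1.85% lower). Before adjustment limma gave 1 segment a p under 0.05, Tcrg-C1, with 0 reads in WT KCs and a mean of 2.11 ± 1.82 normalized counts (SD, n = 3) in LC-/- KCs, and DESeq2 and edgeR called 0. The test of whether the genotype difference itself differed between DETCs and KCs called 0 of 47 segments (0.798% of all tested genes). For Trav16 it gave an adjusted p of 0.0724 and for Trdv4 of 0.657, where the KC side rests on the 8 reads given above.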

How the data were processed

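Poly-A RNA of 11 libraries of sorted KCs and DETCs was analysed. Per the methods, the authors used cutadapt for trimming, hisat2 for alignment to GRCm38, featureCounts for counting and DESeq2 for size factors. The deposited values are the resulting normalized signal per gene. Tool versions and the strand setting are not given in the sources used here. Dividing by the smallest step of a library turned 100% of the deposited values into whole reads, to within 0.00135 reads. Shares and V to C ratios use these reads. Counting error did not account for the spread between replicates (chi-square divided by its degrees of freedom 8.28 to 24.1). The table gave symbols for 52403 of 52550 identifiers through GENCODE mouse release 21.

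Within each population LC-/- and WT libraries were compared with limma 3.58.1 (R 4.3.3; eBayes with trend, Benjamini-Hochberg over 14419 genes) on log2 of the normalized count plus 1, after a filter of CPM above 1 in at least 2 libraries. The difference between populations and WT DETCs against WT KCs were contrasts of a fit to all 4 groups. The recovered reads were also tested with DESeq2 1.42.0 and with edgeR 4.0.16, among other alternatives. Shares and log2 ratios were compared by two-sided exact permutation tests (scipy 1.17.1). On simulated counts of the DETC design over 14419 genes, limma recovered 64 of 100 genes changed 2-fold and 96 of 100 changed 4-fold, with 17 false calls. Segments and lists were chosen with earlier results of these data known. Named were the constant segments, Trdv4, Tcrg-V5, Trav16, V segments with at least 5% of the V reads of their chain, called segments, those with a mean of at least 50 normalized counts without overlap, and called genes and defining markers of the lists. Segments carried by 1 library, copies, neighbours and overlapping genes were named after their values were seen. A count of 0 allows up to 3 reads of a library, for counting error alone. Of the genes this rule selects, 1 is not reported here.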

Additional observations from a re-analysis of the deposited data

How the results depend on the processing

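The DETC counts of called segments (1 higher, 1 lower) became 2 higher and 4 lower with DESeq2, 0 and 0 without the filter on low values, and 0 and 0 with eBayes without trend. They were 2 higher with 1 fit over all 11 libraries (Trav16 and Trav14-3; Trav21-dv12 was then called lower in place of Trdv4) and 2 higher with DETC libraries scaled to their CD3 reads (Trav16 and Trav14-3), a scaling added after the data had been seen. Omission of each DETC library gave 1 higher throughout and 0 to 2 lower, the 2 being Tcrg-V6 and Trac without L3. In KCs the fit over all 11 libraries called 1 higher (Tcrg-C1), and omission of each KC library 0 to 1. The interaction called 1 higher (Trav16) with a pseudocount of 8, 1 lower (Tcrg-C1) with a pseudocount of 0.5, and 0 to 1 lower on omission of each library. Without the filter 88 segments were higher in WT DETCs than in WT KCs, and 46 to 47 on omission of each library. Single log2 fold changes turned sign for Tcrg-C4 (-0.072) and Trbc1 (-0.027) with quantile normalization and for Trbv19 with CD3 scaling (0.043). On omission of each library they turned sign for Trac (-0.77 to 0.48), Trbc2 (-0.29 to 0.032), Trbv3 (-0.95 to 1.69), Trbv12-2 (-1.07 to 0.45), Trbv15 (-0.18 to 1.85) and Trbv19 (-0.32 to 0.18), mostly without L2 or L3; none of these was called but Trac without L3 (adjusted p = 0.0494). The cause of these changes was not tested. Omission of each DETC library left the share differences between -8.68 and -1.06 points for Trdv4, -11.8 and -6.63 for Tcrg-V5 and 10.7 and 18.2 for Trav16, and the log2 ratios of α/β to γ/δ between 0.98 and 1.72 for V and 0.13 and 0.76 for C reads. Trav16 belongs to a family with copies, so no share without such families could be had.

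KC and DETC libraries share numbers. Their deviations from group means correlated at -0.0534 (W1), 0.0667 (W2), 0.117 (W3), 0.143 (L2) and 0.117 (L3), so the numbers were not taken to pair them. With the number as a replicate block the interaction called 0 higher and 0 lower and the population contrast 46 higher and 0 lower, the same counts as without it. Of the α V segments 12 of 128 passed the filter on low values, and the others were not tested.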
